A study of Mus musculus with 6 samples.

Results

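AP-1 is a family of dimeric transcription factors built from Fos, Jun and ATF proteins, and its genes are among the first that a cell switches on after a stimulus. The 10 genes described here are the AP-1 genes Fos, Fosb, Fosl2, Jun, Junb, Jund and Atf3 and the immediate early genes Egr1, Ier2 and Dusp1. They were chosen by symbol. All 10 were found among the 55335 genes of the deposited count table, and all 10 passed the filter on low counts that left 14849 genes for testing. Not all of them are transcription factors, since Dusp1 encodes a phosphatase that switches off MAP kinases.

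RNA was sequenced from CD11b+ cells, which include neutrophils, monocytes and macrophages, sorted by flow cytometry from the spleens of wild-type mice. The mice had either myocardial infarction with ablation of the renal nerves (renal denervation, MI+RDN), or myocardial infarction alone (MI), with 3 biological replicates each and 6 libraries in all. Every mouse thus had an infarct and every library came from sorted cells, so the comparison holds no uninjured and no unsorted sample. The labels used here give no age, sex, time after infarction or number of mice per replicate, and p-values measure no more than the spread among the 6 libraries.

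Immediate early genes need no new protein to be transcribed. MAP kinases activate factors that already sit on their promoters, such as SRF with its partners and CREB, and transcripts rise within minutes and decay quickly. The Fos, Jun and Egr1 proteins then drive a second wave of genes for cytokines, proteases and proliferation, while Dusp1 and Atf3 act as brakes. In myeloid cells these genes respond to microbial products, cytokines and adhesion, and they are also known to rise when cells are taken out of a tissue and sorted.

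All 10 genes were expressed in all 6 libraries, and none differed between MI+RDN and MI past the threshold. By edgeR's quasi-likelihood test with Benjamini-Hochberg adjustment over all genes, 0 of the 10 passed at 0.05, against 1.01% of all genes tested. At an unadjusted p under 0.05 there was 1 gene, Ier2, against 19.9% of all genes. The DESeq2 Wald test and limma-voom also called 0 of the 10, against 7.85% and 0.748% of all genes tested. At such shares, 0 of 10 does not set these genes apart. The fold changes ran from 1.34-fold lower for Fosb to 1.30-fold higher for Ier2. Among the 3 MI libraries, the highest stood above the lowest by more than the size of the fold change in 9 of the 10 genes, all but Fosb. The same count was not made over all genes, so it does not set the 10 genes apart.

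Promoter sequences are shown for Fos, Junb and Dusp1, the 3 genes with the highest levels per length, and for Fosb, the AP-1 gene with the lowest fold change. They run from 250 bases before to 50 bases after the RefSeq start, on build GRCm38.p6, read 5′ to 3′ along the gene. The files were made on GRCm39, so no position here is a position in the files. Capitals mark TGACG, the core of the cAMP response element (CRE) bound by CREB and ATF proteins, on either strand, and the full CRE TGACGTCA where it contains that core.
Fos (chr12:85473640-85473939, plus strand): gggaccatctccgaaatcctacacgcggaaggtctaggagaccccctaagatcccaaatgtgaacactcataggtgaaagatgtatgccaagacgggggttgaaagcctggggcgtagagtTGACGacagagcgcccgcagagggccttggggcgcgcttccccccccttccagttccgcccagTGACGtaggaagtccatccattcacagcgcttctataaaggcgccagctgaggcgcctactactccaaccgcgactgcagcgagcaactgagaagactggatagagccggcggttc
Fosb (chr7:19309996-19310295, minus strand): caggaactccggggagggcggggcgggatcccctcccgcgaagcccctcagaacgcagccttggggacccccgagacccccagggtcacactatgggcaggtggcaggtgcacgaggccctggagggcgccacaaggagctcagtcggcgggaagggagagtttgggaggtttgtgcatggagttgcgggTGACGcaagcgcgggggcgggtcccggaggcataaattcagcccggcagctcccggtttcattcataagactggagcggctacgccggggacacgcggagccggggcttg
Junb (chr8:84978699-84978998, minus strand): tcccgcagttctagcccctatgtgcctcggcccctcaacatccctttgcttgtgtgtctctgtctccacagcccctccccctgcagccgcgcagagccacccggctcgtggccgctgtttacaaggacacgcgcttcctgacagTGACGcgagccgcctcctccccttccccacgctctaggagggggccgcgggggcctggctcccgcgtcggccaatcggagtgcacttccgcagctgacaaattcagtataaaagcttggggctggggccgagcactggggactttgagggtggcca
Dusp1 (chr17:26508423-26508722, minus strand): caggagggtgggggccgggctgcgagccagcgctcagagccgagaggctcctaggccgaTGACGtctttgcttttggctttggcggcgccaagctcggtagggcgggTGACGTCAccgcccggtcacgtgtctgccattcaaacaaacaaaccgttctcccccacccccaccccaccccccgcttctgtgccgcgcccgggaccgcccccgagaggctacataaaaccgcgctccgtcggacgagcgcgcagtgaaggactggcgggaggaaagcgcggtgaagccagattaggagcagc

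RefSeq windows were searched for 8 of the 10 genes, all but Egr1 and Ier2. The search for the 10 genes left out windows on a chosen chromosome, which the shares of all windows did not. Egr1 or Ier2 may be missing through that choice. Their absence from the search therefore does not show that they have no RefSeq window. Nothing here tells which motifs Egr1 and Ier2 hold. TGACG, searched on both strands, was found in 5 of these 8 windows (Fos, Fosb, Junb, Atf3 and Dusp1) and in 20.8% of 32851 mouse windows of the same length. The full CRE TGACGTCA, which contains TGACG, was found in Dusp1 and in 1.79% of all windows. The AP-1 site TGANTCA was in 0 of the 8 windows and in 7.81% of all windows, and the CArG box, the site of SRF, was in 0 of the 8 and in 1.63%. These matches are letters in a 300-base window, not binding sites. A count of 0 holds for the 8 searched windows only, and windows of Egr1 and Ier2 could change it. Sequence farther from the start was not searched, so the counts do not tell whether a gene lacks a CArG box or an AP-1 site.

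Levels between genes were compared as CPM (a gene's counts relative to the library's total, scaled by TMM factors) per kilobase of transcript, with the error as SD over the 6 libraries. Junb stood highest at 888 ± 169 CPM per kilobase, followed by Dusp1 at 884 ± 219 and Fos at 830 ± 150. These 3 ranked 102nd, 103rd and 113th of 14836 genes with a length, and their ranges overlapped, so their order was not resolved. Below a gap came Ier2 at 181 ± 33.8, Jund at 131 ± 23.3, Egr1 at 122 ± 41.9 and Jun at 121 ± 32.4 CPM per kilobase, each overlapping its neighbour. Fosl2, whose range met that of Jun, stood at 71.4 ± 13.5 and Fosb at 54.2 ± 12.5, again with overlapping ranges. Atf3 was lowest at 25.2 ± 4.06, with no library as high as the lowest Fosb library.

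Within each AP-1 family 1 gene made up most of the transcripts in every library. Fos took 85.5% to 90.0% of the Fos family total per kilobase (Fos, Fosb and Fosl2) in MI+RDN and 83.0% to 86.8% in MI. Junb took 76.1% to 78.7% of the Jun family total (Jun, Junb and Jund) in MI+RDN and 76.5% to 79.6% in MI. Jun, which gave the family its name, took 11.0 ± 2.75% in MI+RDN and 10.2 ± 0.958% in MI (SD, n = 3). The Fos family total was 0.813 ± 0.0735 of the Jun family total in MI+RDN and 0.873 ± 0.0208 in MI.

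**Figure D1:**
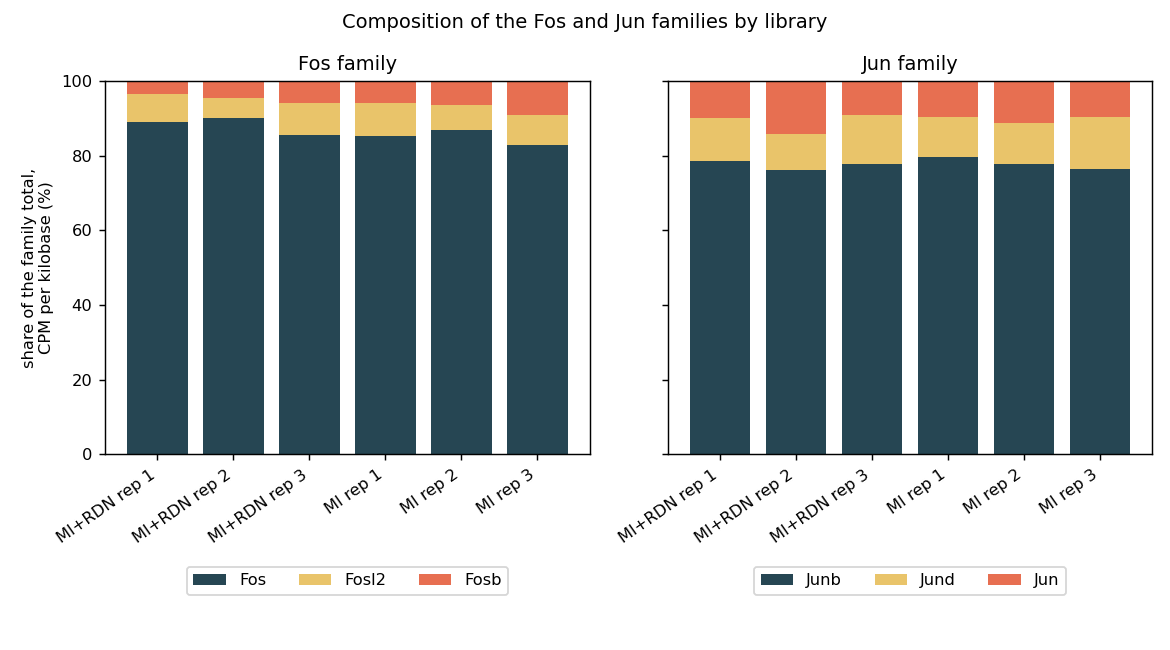
Share of each gene in the total of its family, in percent of CPM per kilobase (vertical axis), for the 6 libraries (horizontal axis, MI+RDN on the left). Fos makes up 83.0% or more of the Fos family and Junb 76.1% or more of the Jun family in every library.

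Fos, the main partner of the Jun proteins, stood at 1913, 1955 and 1778 CPM in MI+RDN replicates 1 to 3 and at 1642, 2042 and 1171 CPM in MI replicates 1 to 3. The MI+RDN libraries lay close together, inside the range of the MI libraries, which held both the highest and the lowest value. MI+RDN over MI gave a log2 fold change of 0.22 (SE 0.20, 95% interval -0.25 to 0.68, edgeR Benjamini-Hochberg adjusted p = 0.583). Without MI replicate 3 it was 0.030.

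Fosb, a relative of Fos whose shorter splice form lacks part of the activation domain, stood at 123, 170.1 and 206 CPM in MI+RDN and at 196, 255 and 220.2 CPM in MI. Its highest MI+RDN library lay above its lowest MI library, so the groups overlapped. Its log2 fold change was -0.43 (SE 0.19, 95% interval -0.86 to 0.0069, edgeR Benjamini-Hochberg adjusted p = 0.257). The sign was negative under all 15 alternatives run, the extremes being -0.62 with MI+RDN replicate 3 left out and -0.25 with MI+RDN replicate 1 left out. Gene counts do not separate the splice forms.

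Fosl2, the Fos-related gene also known as Fra-2, stood at 506, 367 and 558 CPM in MI+RDN and at 525, 499 and 346 CPM in MI. Each group had a low library, MI+RDN replicate 2 and MI replicate 3. The difference was 0.063 on the log2 scale (SE 0.20, edgeR Benjamini-Hochberg adjusted p = 0.894), and its sign turned in 3 of 15 alternatives.

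Junb, the Jun protein that is a weaker activator than Jun on many AP-1 sites, stood at 1971, 1609 and 1690 CPM in MI+RDN and at 1549, 1763 and 1058 CPM in MI. MI replicate 3 was the lowest library, and the other 5 lay between 1549 and 1971 CPM. Its log2 fold change was 0.27 (SE 0.20, 95% interval -0.19 to 0.73, edgeR Benjamini-Hochberg adjusted p = 0.486), and without MI replicate 3 it was 0.085.

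Jun itself stood at 433, 527 and 346 CPM in MI+RDN and at 327, 451 and 237 CPM in MI. In both groups replicate 2 was high, and the groups overlapped. MI+RDN over MI gave a log2 fold change of 0.36 (SE 0.24, 95% interval -0.20 to 0.92, edgeR Benjamini-Hochberg adjusted p = 0.441), or 0.16 without MI replicate 3 and 0.63 without MI replicate 2. Jund, the Jun gene least dependent on stimulation, stood at 266, 189 and 262 CPM in MI+RDN and at 194, 227 and 176 CPM in MI. MI+RDN replicates 1 and 3 were above all MI libraries, and MI+RDN replicate 2 was within them. Its log2 fold change was 0.27 (SE 0.16, 95% interval -0.095 to 0.63, edgeR Benjamini-Hochberg adjusted p = 0.383).

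Atf3, a bZIP factor that restrains inflammatory genes in macrophages, stood at 38.3, 61.7 and 44.1 CPM in MI+RDN and at 49.2, 52.2 and 48.5 CPM in MI. The highest library was 1.61 times the lowest in MI+RDN and 1.08 times in MI, the narrowest MI range of the 10 genes. MI+RDN held both its highest and its lowest library. On the log2 scale the difference was -0.056 (SE 0.17, 95% interval -0.44 to 0.33, edgeR Benjamini-Hochberg adjusted p = 0.885).

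Egr1, a zinc-finger factor of the SRF response with a role in monocyte differentiation, stood at 558, 583 and 349 CPM in MI+RDN and at 378, 635 and 237 CPM in MI. The highest library stood 1.67 times above the lowest in MI+RDN and 2.68 times in MI, the widest spread of the 10 genes within MI. Replicate 3 was the lowest library of both groups. The log2 fold change was 0.25 (SE 0.34, 95% interval -0.54 to 1.05, edgeR Benjamini-Hochberg adjusted p = 0.718). Without MI replicate 3 it was -0.028, and without MI replicate 2 it was 0.69.

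Ier2, a small nuclear protein of the immediate early response, stood at 324, 321 and 294 CPM in MI+RDN and at 243, 287 and 189.7 CPM in MI. It was the only one of the 10 genes without overlap between the groups, a pattern seen in 26.2% of the genes tested. Its log2 fold change was 0.38 (SE 0.15, 95% interval 0.037 to 0.73, unadjusted p = 0.0340, edgeR Benjamini-Hochberg adjusted p = 0.210). The sign was positive under all 15 alternatives (0.24 with MI replicate 3 left out to 0.53 with MI replicate 2 left out), and the adjusted p was 0.119 or higher in each.

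Dusp1, the phosphatase MKP-1 that inactivates p38 and JNK, stood at 1287, 1441 and 1805 CPM in MI+RDN and at 1834, 2145 and 1079 CPM in MI. MI replicates 1 and 2 were above every MI+RDN library and MI replicate 3 was below every one. The log2 fold change was -0.16 (SE 0.26, 95% interval -0.75 to 0.43, edgeR Benjamini-Hochberg adjusted p = 0.769). Without MI replicate 2 it was 0.054, and without MI replicate 3 it was -0.40.

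**Figure D2:**
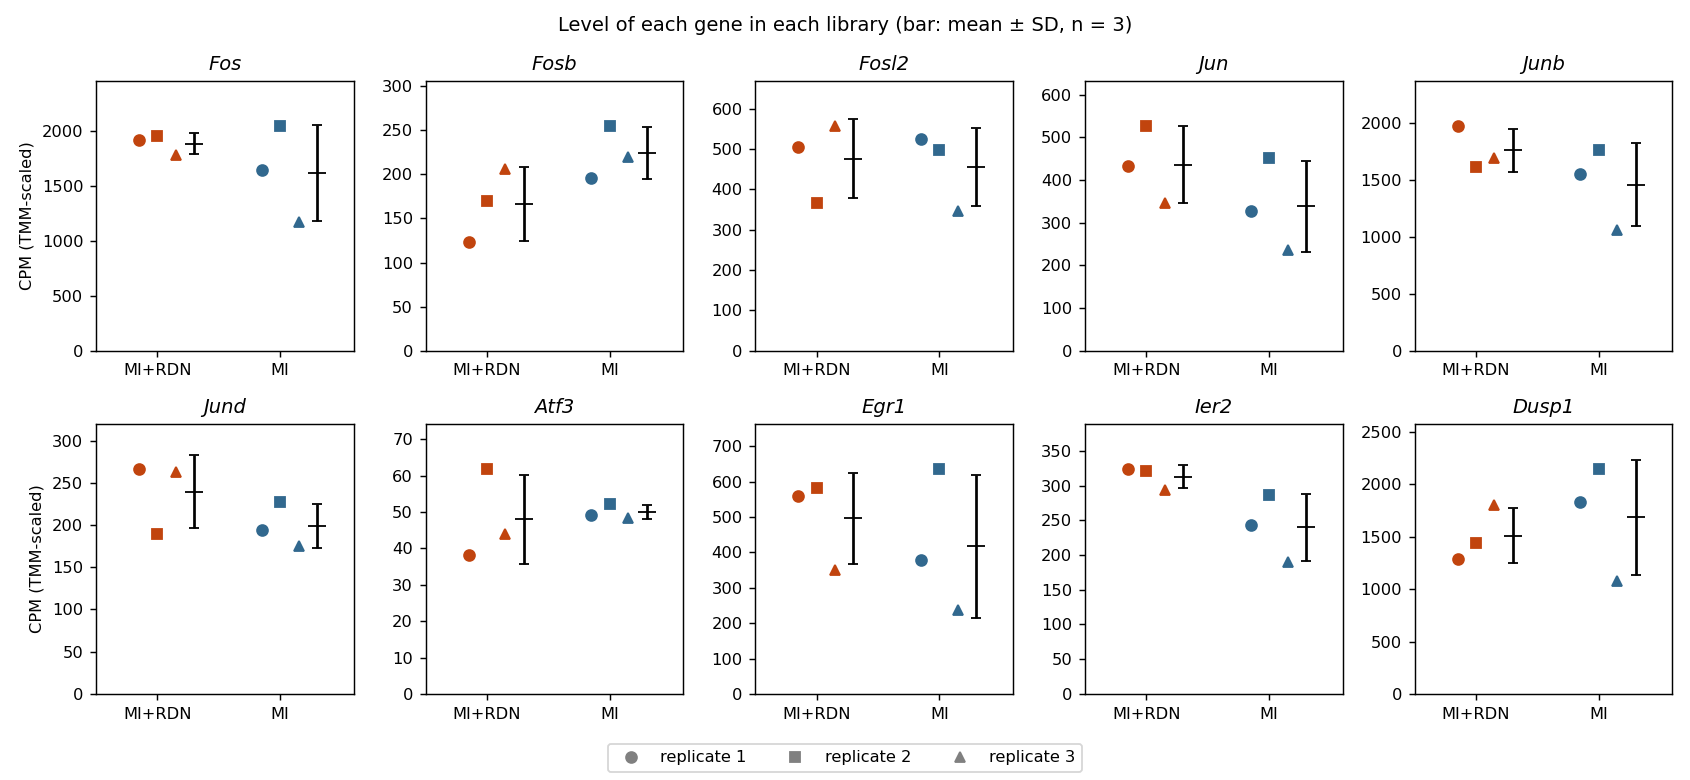
Level of each of the 10 genes in CPM (vertical axes, from 0) in the 3 MI+RDN and the 3 MI libraries, with marker shapes for the replicate number and bars for the mean ± SD (n = 3). MI replicate 3 is the lowest library in 8 panels, and the groups are separate only for Ier2, at 294 to 324 CPM in MI+RDN and 189.7 to 287 CPM in MI.

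**Figure D3:**
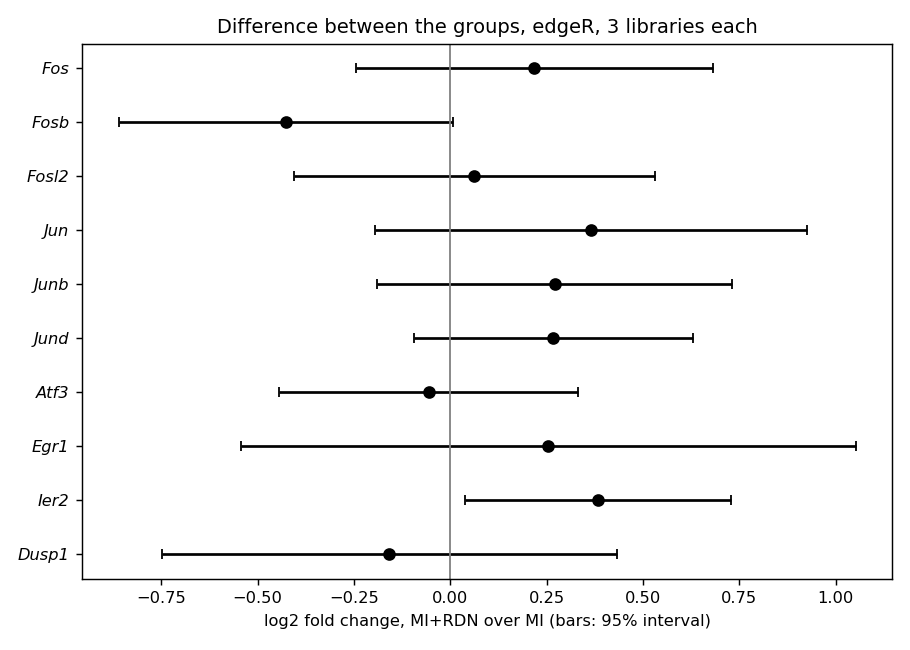
Log2 fold change of MI+RDN over MI for each of the 10 genes (points) with its 95% interval from edgeR (bars). The interval spans 0 in 9 genes and not in Ier2 (0.037 to 0.73), before adjustment over all genes.

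The fold change was positive in 7 of the 10 genes, against 51% of all genes tested, and negative in Fosb, Atf3 and Dusp1. The median log2 fold change was 0.24, against 0.0080 over all genes. Leaving out MI replicate 3 gave 0.0011, and leaving out MI replicate 2 gave 0.40. Without scaling factors it was 0.11, with the median of all genes at -0.13. In the fit over all genes, 44 were higher in MI+RDN and 106 lower, a split that was 62 and 413 without scaling factors.

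MI replicate 3 was the lowest of the 6 libraries for 8 of the 10 genes, all but Fosb and Atf3, against 23.6% of all genes tested. That count was 6 without scaling factors. MI replicate 2 was the highest MI library for 9 of the 10, all but Fosl2, against 30.6% of all genes. As a mean of log2 CPM relative to the 6 libraries, the 10 genes stood at 0.050, 0.094 and 0.059 in MI+RDN and at -0.031, 0.25 and -0.42 in MI. The MI+RDN libraries were therefore close to each other on this mean and lay between the MI libraries. The 10 genes together took 0.692% to 0.706% of all counts in MI+RDN and 0.516% to 0.855% in MI.

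The spread within a group was wide for genes of this level. The highest library stood a median of 1.46 times above the lowest in MI+RDN and 1.59 times in MI for the 10 genes. Over the 3991 genes with a mean CPM at or above that of Atf3, the same medians were 1.19 in MI+RDN and 1.16 in MI.

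Relative to Fos, Fosb was at 6.45%, 8.70% and 11.6% of the Fos CPM in MI+RDN and at 12.0%, 12.5% and 18.8% in MI, so the groups did not overlap. Ier2 was at 16.9%, 16.4% and 16.5% of Fos in MI+RDN and at 14.8%, 14.0% and 16.2% in MI, also without overlap. These ratios, which do not depend on the scaling of the libraries, were chosen after the values were seen and carry no test. Among the other 9 genes, 2 had a ratio to Fos without overlap, against 15% of 14848 genes. The ratios of Fosl2, Jun, Junb, Jund, Atf3, Egr1 and Dusp1 to Fos overlapped between the groups.

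The genes with the profile most like the mean of the 10 were found by the root-mean-square difference of centred log2 CPM over the 6 libraries, among 10225 genes with a mean of at least 5 CPM. They were Gpn2, Tmem63b, Ogfrl1, Suco, Pfkfb3 and Fth1. Gpn2 was the closest, at a difference of 0.053, and Fth1 the farthest of the 6, at 0.071, against a median of 0.27 over the genes compared. The 6 were picked for the smallest difference, so lying under the median was fixed by the choice. Pfkfb3, a regulator of glycolysis, stood at 132, 147 and 146 CPM in MI+RDN and at 129.8, 146 and 104 CPM in MI. Fth1, the ferritin heavy chain, stood at 2097, 1961 and 1871 CPM in MI+RDN and at 1883, 2090 and 1459 CPM in MI. Among the 10 genes, Fos was the closest to their own mean (0.080), and Fosb was the farthest (0.40).

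**Figure D4:**
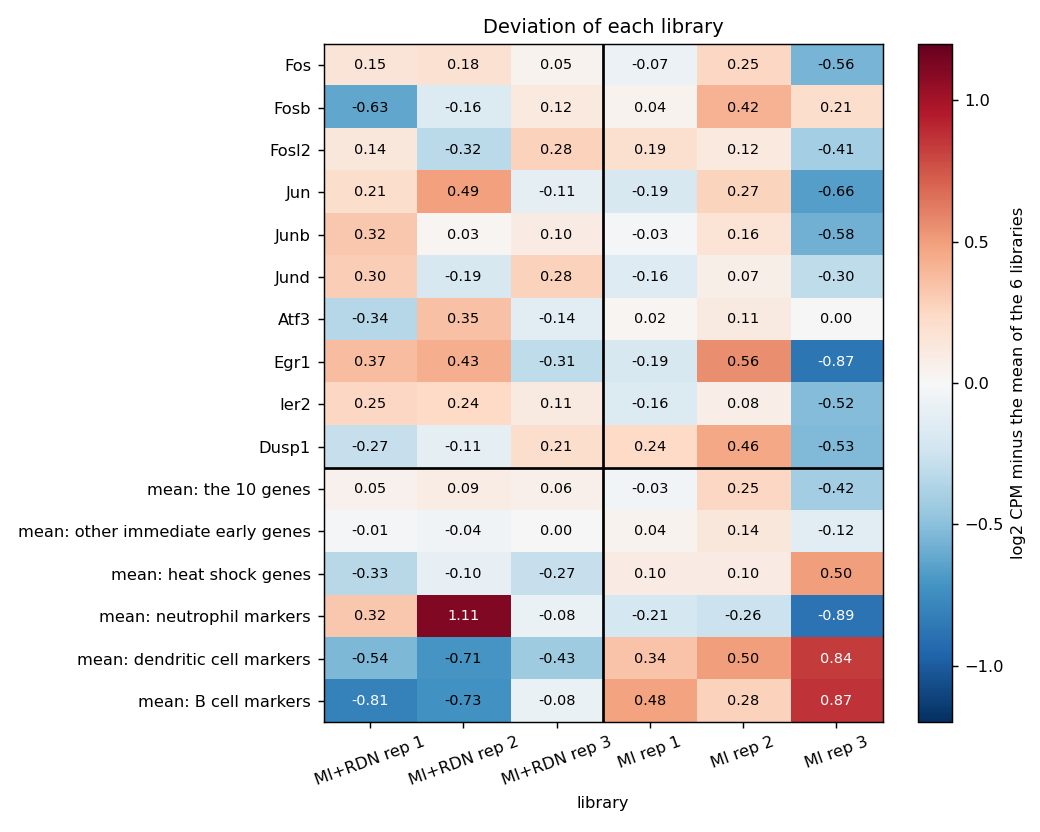
Log2 CPM minus the mean of the 6 libraries (colour and printed value), for each of the 10 genes and, below the line, for the mean of gene lists, with MI+RDN libraries on the left and MI libraries on the right. In MI replicate 3 the mean of the 10 genes is -0.42 and that of the heat shock genes 0.50.

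Other genes of the pathway were taken from lists of AP-1 relatives, immediate early genes, kinases, phosphatases, targets and heat shock genes. Counts in these lists stand against 19.9% of all genes with an unadjusted p under 0.05, 7.85% called by DESeq2 and 0.748% called by limma-voom. Of 17 tested AP-1 relatives, 0 passed by edgeR, with 3 higher and 2 lower at an unadjusted p under 0.05. DESeq2 called 4 and limma-voom 0. Their median log2 fold change was 0.11, and -0.028 without scaling factors. Maf, a large bZIP factor of macrophages, stood at 16.6, 16.8 and 20.3 CPM in MI+RDN and at 26.3, 26.3 and 25.4 CPM in MI (log2 fold change -0.54, edgeR Benjamini-Hochberg adjusted p = 0.0671). Mafg, a small Maf protein that pairs with other bZIP factors, stood at 109.6, 138 and 107.7 CPM in MI+RDN and at 88.7, 84.3 and 70.9 CPM in MI (log2 fold change 0.54, edgeR Benjamini-Hochberg adjusted p = 0.0825). Both genes had separate groups. They were picked for the lowest p of their list, so this separation adds little, and 26.2% of the genes tested showed it too. Fosl1, the remaining Fos relative, had 61 counts over the 6 libraries and was not tested.

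Of 32 other immediate early genes tested, 0 passed by edgeR, with 3 higher and 5 lower at an unadjusted p under 0.05. DESeq2 called 3 and limma-voom 0. The median log2 fold change was 0.031, and -0.10 without scaling factors, with 18 positive and 14 negative. Tnfaip3, the ubiquitin-editing brake on NF-kB also known as A20, stood at 64.4, 76.2 and 68.9 CPM in MI+RDN and at 102.7, 112 and 95.8 CPM in MI. Its log2 fold change of -0.57 (SE 0.10) missed the threshold (edgeR Benjamini-Hochberg adjusted p = 0.0511), and it passed with upper-quartile factors (0.0426), with a mean of at least 5 CPM (0.0378), without scaling factors (0.0246), with robust edgeR (0.0370) and with DESeq2 (5.92e-04). Nr4a3, an orphan nuclear receptor, stood at 2.66, 2.27 and 2.19 CPM in MI+RDN and at 4.60, 4.64 and 5.61 CPM in MI (log2 fold change -1.06, edgeR Benjamini-Hochberg adjusted p = 0.0571). As a mean over the list, MI replicate 2 was again the highest library (0.14) and MI replicate 3 the lowest (-0.12), with MI+RDN at -0.012, -0.043 and 0.0027. This list holds no member of the 10 genes.

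Among 25 MAP kinases and SRF partners, 0 passed by edgeR, with 5 higher and 1 lower at an unadjusted p under 0.05. DESeq2 called 2 and limma-voom 0. The median was 0.062, and -0.075 without scaling factors. Mapk13, the p38 delta kinase, stood at 74.7, 101 and 59.2 CPM in MI+RDN and at 39.6, 37.3 and 28.6 CPM in MI. Its log2 fold change of 1.16 (SE 0.21) missed the threshold (edgeR Benjamini-Hochberg adjusted p = 0.0511), and it passed with upper-quartile factors (0.0474), with a mean of at least 5 CPM (0.0432), without scaling factors (0.0416), with robust edgeR (0.0455), with the replicate number as a block (0.0408) and with DESeq2 (7.64e-06). Mapk3, which encodes ERK1, stood at 224, 255 and 239.6 CPM in MI+RDN and at 188, 194 and 169.9 CPM in MI (log2 fold change 0.38, edgeR Benjamini-Hochberg adjusted p = 0.0897).

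Of 7 tested relatives of Dusp1, 0 passed by edgeR, with 1 lower at an unadjusted p under 0.05. DESeq2 called 1 and limma-voom 0. Their median was -0.29, or -0.43 without scaling factors. It was -0.10 when MI replicate 3 was left out, -0.16 when MI+RDN replicate 1 was and -0.11 when MI+RDN replicate 2 was. Dusp2, a phosphatase of activated leukocytes, stood at 16.8, 22.5 and 22.7 CPM in MI+RDN and at 30.03, 31.4 and 29.6 CPM in MI (log2 fold change -0.55, edgeR Benjamini-Hochberg adjusted p = 0.0854). Dusp5 stood at 41.6, 39.6 and 38.6 CPM in MI+RDN and at 38.3, 47.5 and 60.7 CPM in MI, and the groups overlapped.

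Known AP-1 targets were the only one of the 6 pathway lists with genes past the threshold by edgeR. The lists were chosen with earlier results of these data known, so this does not set the target list apart. Of 17 tested, 2 fell and 0 rose, against 0.714% of all genes lower and 0.296% higher, while at an unadjusted p under 0.05 there were 5 higher and 2 lower. DESeq2 called 6 and limma-voom 2. The 5 higher genes were Mmp8, Vim, Mmp9, Plaur and Ccl2, none past the threshold (edgeR Benjamini-Hochberg adjusted p = 0.0539 to 0.177). Each had MI+RDN libraries entirely above the MI libraries. These genes were picked by p, so this separation adds little, and 26.2% of the genes tested had separate groups. Mmp8, a collagenase stored in neutrophil granules, stood at 911, 1212 and 854 CPM in MI+RDN and at 555, 538 and 384 CPM in MI (log2 fold change 1.01). Mmp8 and Mmp9 are also among the neutrophil markers, whose sums are given with the cell type markers. The median log2 fold change was 0.19, and it was -0.027 with no filter on low counts, 0.050 without scaling factors and 0.065 with a mean of at least 5 CPM. Ccnd1, which encodes the G1 cyclin D1, stood at 21.3, 25.8 and 21.6 CPM in MI+RDN and at 38.04, 46.7 and 57.6 CPM in MI. All MI+RDN libraries were below all MI libraries, and the gene was 2.07-fold lower (-1.05 ± 0.16 as log2 fold change ± SE, adjusted p = 0.0401 by edgeR with Benjamini-Hochberg adjustment). Mmp12, a metalloproteinase that cuts elastin, stood at 3.04, 1.97 and 1.72 CPM in MI+RDN and at 6.56, 7.44 and 9.23 CPM in MI, and was 3.44-fold lower (-1.78 ± 0.27 on the same scale, adjusted p = 0.0401 by edgeR). Both calls were lost with any 1 library left out (adjusted p = 0.0523 to 0.1345 for Ccnd1 and 0.0609 to 0.136 for Mmp12), with no filter (0.0793 for both) and with the replicate block (0.0538 and 0.0690).

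**Figure D5:**
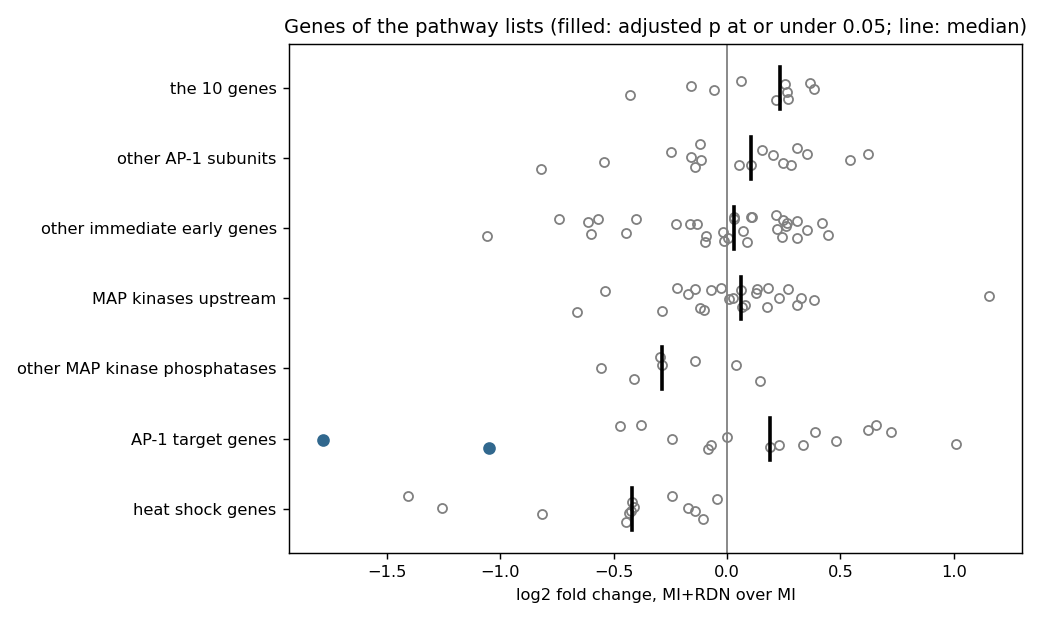
Log2 fold change of MI+RDN over MI (horizontal axis) for each tested gene of the 10 genes and 6 pathway lists (rows), with filled points at an adjusted p at or under 0.05 and a line at each median. Only Ccnd1 and Mmp12, at -1.05 and -1.78 among the AP-1 targets, are filled.

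Heat shock genes, which also respond to warm handling of cells, were followed beside the immediate early genes. Of 13 tested, 0 passed by edgeR, with 9 at an unadjusted p under 0.05, against 19.9% of all genes, and a negative fold change in all 13, against 49% of all genes. DESeq2 called 5 and limma-voom 0. Their median log2 fold change was -0.42. Hspa1b stood at 14.0, 18.8 and 11.6 CPM in MI+RDN and at 25.4, 36.2 and 56.1 CPM in MI (log2 fold change -1.41, edgeR Benjamini-Hochberg adjusted p = 0.0654). Its near-identical copy Hspa1a, with which it may share reads, stood at 12.5, 15.7 and 12.6 CPM in MI+RDN and at 19.9, 30.6 and 47.01 CPM in MI. As a mean over the list, the libraries stood at -0.33, -0.097 and -0.27 in MI+RDN and at 0.10, 0.10 and 0.50 in MI. MI replicate 3, the lowest library for the 10 genes, was thus the highest for the heat shock genes. No value here separates expression in the animal from activation during the sort, whose part in the levels of these genes was not tested.

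Markers of cell types moved between the libraries as well. By edgeR, counts called in the marker lists stand against 0.296% of all genes higher and 0.714% lower. The share of all genes was 7.85% by DESeq2, 0.748% by limma-voom and 19.9% at an unadjusted p under 0.05. Itgam, which encodes the sort marker CD11b, stood at 1666, 1638 and 1489 CPM in MI+RDN and at 1087, 1301 and 1011 CPM in MI (edgeR Benjamini-Hochberg adjusted p = 0.109). Neutrophil markers summed to 28476 to 52293 CPM in MI+RDN and to 15722 to 24666 CPM in MI, with MI replicate 3 the lowest, and 2 of 14 rose. That count was 6 with DESeq2, 0 with no filter and 0 with any 1 library left out except MI+RDN replicate 2, where it was 2. All 14 fold changes were positive, against 51% of all genes, but the groups were separate in only 6 of the 14, against 26.2%. The highest sum was that of MI+RDN replicate 2. Ngp, for example, stood at 4784, 11481 and 1385 CPM in MI+RDN and at 3473, 3071 and 1640 CPM in MI. Dendritic cell markers summed to 1633 to 1845 CPM in MI+RDN and to 2824 to 4278 CPM in MI, with MI replicate 3 the highest, and 6 of 10 fell. The calls were 9 with DESeq2, 3 with the replicate block, 1 with no filter and 0 or 1 with any 1 library left out. B cell markers summed to 244 to 392 CPM in MI+RDN and to 476 to 731 CPM in MI, with 0 of 9 past the threshold by edgeR and 9 of 9 lower at an unadjusted p under 0.05. DESeq2 called 9, the replicate block 7, edgeR without scaling factors 6, and robust edgeR and a mean of at least 5 CPM 2 each, while limma-voom called 0. Monocyte and macrophage markers summed to 3831 to 4023 CPM in MI+RDN and to 4042 to 4514 CPM in MI, and 1 of 12 (Ly6c2) rose, a call lost with no filter and with any 1 library left out. Ly6c2 went against most of its list, where 10 of 12 fold changes were negative and the median log2 fold change was -0.40. At an unadjusted p under 0.05 there were 3 lower and 1 higher. DESeq2 called 3 of this list and edgeR without scaling factors 2.

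T and NK cell markers summed to 124 to 188 CPM in MI+RDN and to 192 to 218 CPM in MI, and 2 of 10 (Cd4 and Cd3d) fell. At an unadjusted p under 0.05, 6 of the 10 were lower and 0 higher. The list was not uniform, with a log2 fold change of -1.82 for Cd4 and -1.47 for Cd3d. For the NK and cytotoxic genes it was -0.071 (Ncr1), -0.20 (Klrb1c), 0.034 (Nkg7) and 0.019 (Gzma), and in each of them the groups overlapped. The calls were 6 with DESeq2, 4 without scaling factors, 1 with the replicate block, limma-voom, no filter or the 5 CPM filter, and 0 or 1 with any 1 library left out. Red cell and platelet markers summed to 146 to 199.7 CPM in MI+RDN and to 315 to 601 CPM in MI. Of 8 tested, 0 passed by edgeR and 0 by limma-voom, 5 were lower at an unadjusted p under 0.05, DESeq2 called 5 and edgeR without scaling factors 3. In these bulk samples, fewer cells of a type and less RNA per cell cannot be told apart, and the part of cell makeup in the levels of the 10 genes was not tested. Stromal and endothelial markers summed to at most 78.6 CPM in any library, and Col1a2, Col3a1 and Cdh5 were too low to test.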

How the data were processed

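Bulk RNA of splenic CD11b+ cells was sequenced from 3 MI+RDN and 3 MI libraries. The authors deposited whole-number counts per Ensembl gene with no normalisation. Per the submitters' processing notes, FastQC 0.11.2, STAR and the build GRCm39 were used. Libraries were strand-specific, per the labels' protocols. The counting tool, its strand setting and its treatment of shared reads were not given in any source used here, so the counts of Jun, Junb, Jund, Atf3 and Dusp1, which overlap other annotated genes, are less certain.

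Library totals were 24634555 to 28013900 counts in MI+RDN and 21663440 to 24677865 in MI. Symbols (55154 IDs) and transcript lengths (median of protein-coding transcripts) came from GENCODE M21 on GRCm38 by gene ID. Counts were filtered with filterByExpr, scaled with TMM factors and tested with edgeR 4.0.16 in R 4.3.3, on all 6 libraries without covariates. Standard errors were the size of each log2 fold change divided by the root of its F statistic, and 95% intervals use the test's degrees of freedom. Log2 CPM used a prior count of 2. The fit was tested on simulated data.

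The members and lists were chosen with earlier results of these data known. Named genes were all 10 members, Itgam, up to 4 passing genes per pathway list (or the 2 with the lowest p) and the 6 genes of nearest profile. Tnfaip3 and Nr4a3 entered as the 2 of lowest p in their list. Ly6c2, Fosl1, Vim, Mmp8, Mmp9, Plaur, Ccl2, Ngp, Cd4, Cd3d, Ncr1, Klrb1c, Nkg7 and Gzma were named after their values were seen. Mmp8 and Mmp9 stand in both the target and neutrophil lists, and Nr4a1 in both the immediate early and monocyte lists. The 15 alternatives used other scalings, filters and tests (DESeq2 1.42.0, limma 3.58.1), the replicate block and each library left out. Python 3.11.15 with matplotlib 3.10.9 drew the figures.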

Additional observations from a re-analysis of the deposited data

How the results depend on the processing

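None of the 10 genes was called in either direction under any of the 15 alternatives. Signs turned in 6 cases for single members, none of them called. The log2 fold change of Fosl2 was -0.073 without scaling factors. With 1 library left out, Fosl2 ran from -0.10 (MI replicate 3) to 0.20 (MI+RDN replicate 2), and was -0.085 for MI+RDN replicate 3. In the same way Egr1 ran from -0.028 (MI replicate 3) to 0.69 (MI replicate 2), Dusp1 from -0.40 (MI replicate 3) to 0.054 (MI replicate 2) and Atf3 from -0.29 (MI+RDN replicate 2) to 0.088 (MI+RDN replicate 1). Among the genes of like profile, without scaling factors Gpn2 was at -0.034, Tmem63b at -0.039, Suco at -0.0058 and Fth1 at -0.0062. With MI replicate 3 or MI replicate 2 left out, Gpn2 was at -0.052 and 0.22, Tmem63b at -0.050 and 0.25 and Fth1 at -0.0078 and 0.24. Of the named pathway genes that missed the threshold, Maf, Nr4a3, Dusp2, Hspa1a and Hspa1b passed without scaling factors (adjusted p = 0.0320 to 0.0494). With DESeq2 these 5 passed too, as did Mafg, Mapk3 and Itgam. The median of the 10 genes ranged from 0.0011 to 0.40 with 1 library left out, and was 0.11 to 0.26 under the other alternatives.

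Over all genes, 44 were called higher and 106 lower. The calls higher and lower were 62 and 413 without scaling factors, 7 and 14 with no filter, and 67 and 223 with a mean of at least 5 CPM. They were 561 and 604 with DESeq2, 29 and 82 with limma-voom, and 89 and 188 with robust edgeR. With 1 library left out they were 0 to 30 higher and 0 to 37 lower. The replicate block gave 23 higher and 64 lower and still called 0 of the 10 genes. Same-numbered libraries did not deviate together (correlations of 0.018, -0.065 and 0.064 across 14849 genes), and 2 of the 6 libraries correlated best with their own number. The causes were not tested. With 3 libraries a group, the width of the 95% interval differed between the 10 genes. It included folds from 0.686 to 2.07 for Egr1, the widest, from 0.551 to 1.005 for Fosb and from 0.735 to 1.26 for Atf3. Changes inside a gene's own interval were not resolved.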
